A study of Mus musculus with 4 samples.

Results

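The clustered histone genes are the rows of the count tables whose symbol begins with Hist, a cluster number and h. By that rule 68 of 23337 gene symbols were members, of which 6 encode the linker histone H1, 18 encode H2a, 19 encode H2b, 12 encode H3 and 13 encode H4. They were measured in Tomato-positive cells sorted from mouse olfactory epithelium that had regenerated after damage, in RNA from which ribosomal RNA had been depleted. Of the members, 54 lie in the Hist1 locus on chromosome 13, 10 in Hist2 on chromosome 3, 3 in Hist3 on chromosome 11, and Hist4h4 stands alone on chromosome 6. Hist3h2bb-ps is annotated as a processed pseudogene and the others as protein-coding genes.

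Core histones H2a, H2b, H3 and H4 form the particle around which DNA is wrapped, and H1 binds the linker DNA between particles. Genes in these clusters are mostly transcribed as DNA is replicated. Their mRNAs usually end in a short stem-loop instead of a poly(A) tail. The protein Slbp binds this stem-loop and controls processing, export and decay of the mRNA. Libraries made by removing ribosomal RNA keep such transcripts, whereas libraries made from poly(A) RNA lose most of them. In the olfactory epithelium cell division takes place in basal cells, and olfactory sensory neurons no longer divide. Hist2h2be encodes an H2b variant known from olfactory sensory neurons, in which it is expressed independently of replication.

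The samples came from 4 mice of mixed strain background, 1 mouse each, which all carried a Cre transgene under the Keratin 5 promoter and the Cre-dependent Ai9 allele of the R26 locus, which encodes the red reporter Tomato. The Keratin 5 promoter is active in horizontal basal cells, a quiescent stem cell population, so Tomato marks those cells and the progeny they gave rise to. Controls were labelled Lmnb1+/- and mutants Lmnb1-/-, so the cells of the controls also lack 1 of their copies of Lmnb1, the gene of lamin B1. All mice had been given 50 mg/kg methimazole, which destroys the epithelium, and were sampled after 4 weeks of recovery. Control 1 and mutant 1 made up experimental group 1, and control 2 and mutant 2 made up experimental group 2. Per the design text of the series, mice of the same group shared treatment, parents, age, sex, library preparation and sequencing, and the groups differed in treatment, parents, age and sex at once. Which group received which of these is not given in the sources used here.

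Reads assigned to genes numbered between 14833396 (mutant 2) and 23704638 (control 1) per library. Lmnb1 had 477 and 395 counts in the controls and 326 and 149 in the mutants, with a fitted log2 fold change of -0.72 that did not pass the test (edgeR adjusted p = 0.195). The count is summed over the whole gene, of which the conditional allele removes 1 exon. Mutant 1 stood apart in that 39.4% of its uniquely aligned reads lay outside gene models, against 22.1 to 24.9% in the other libraries. It also had only 1603 genes at 0 counts, against 5173 to 6053 in the other libraries. Markers of the sorted cells were present in every library, from the mature neuron gene Omp to the basal cell gene Krt15. Of 7 erythroid genes 1 passed the filter on low counts, but Hba-a1, Hba-a2 and Hbb-b2 are near-identical copies listed at 0, which says nothing of their transcripts.

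The sequence that sets these transcripts apart is the stem-loop, which was searched as the histone 3′ stem-loop consensus in GENCODE transcript models. It was found in models of 46 of 68 members, compared with 0.223% of 31813 coding or pseudogene symbols. Another 16 members have only models whose length is a multiple of 3, so that they may end with the coding sequence, and Hist1h1a and Hist1h1b have no match. The examples below are written 5′ to 3′ with the stem-loop in capitals, and were chosen because their genes are described in the results.
Hist1h1d: ctcaaacGGCTCTTTTCAGAGCCacccaca
Hist1h2bm: acacaaaGGCTCTTTTCAGAGCCactaagc
Hist1h1c: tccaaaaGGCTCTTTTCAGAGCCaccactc
Hist2h2ac: ccaaaaaGGCTCTTTTTAGAGCCaccaaat
Hist1h4d: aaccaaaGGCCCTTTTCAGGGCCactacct
Hist4h4: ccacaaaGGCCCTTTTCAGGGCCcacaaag
The form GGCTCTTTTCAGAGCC was the most frequent, with 26 members, none of which was an H4 gene. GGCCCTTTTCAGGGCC occurred in 7 members, all of them H4 genes. The stem-loop was not found in the model of Hist2h2be.

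Promoter windows of 300 bases, from 250 bases before to 50 after the RefSeq start site (GRCm38.p6), were available for 63 start sites of members. CCAAT, read on both strands, was in 85.7% of them and in 37.4% of 32851 promoters of all genes, and among the members it was in every H1, H2a, H2b and H3 window but in 25.0% of the H4 windows. TATAAA was in 55.6% of member windows and 13.6% of all. The octamer ATTTGCAT was in 22.2% of member windows and 1.7% of all, and occurred only at H2a and H2b genes. AAACACA, known as the H1 box, was in 83.3% of the H1 windows and 7.2% of all. H2a and H2b genes mostly lie head to head, so neighbouring windows overlap and are not independent. Windows are shown for the H1 genes and the H2b gene with the smallest p-values, and for Hist2h2ac, which starts 192 bases from the far more abundant Hist2h2be on the opposite strand. Each is written 5′ to 3′ along its gene, and capitals mark these motifs on either strand.
Hist1h1a, chr13:23763418-23763717, + strand: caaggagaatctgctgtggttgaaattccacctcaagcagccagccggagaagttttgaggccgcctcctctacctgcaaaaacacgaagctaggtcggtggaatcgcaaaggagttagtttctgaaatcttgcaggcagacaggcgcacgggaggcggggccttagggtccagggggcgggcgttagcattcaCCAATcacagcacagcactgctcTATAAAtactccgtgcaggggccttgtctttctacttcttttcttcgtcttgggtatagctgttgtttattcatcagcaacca
Hist1h1b, chr13:21780576-21780875, - strand: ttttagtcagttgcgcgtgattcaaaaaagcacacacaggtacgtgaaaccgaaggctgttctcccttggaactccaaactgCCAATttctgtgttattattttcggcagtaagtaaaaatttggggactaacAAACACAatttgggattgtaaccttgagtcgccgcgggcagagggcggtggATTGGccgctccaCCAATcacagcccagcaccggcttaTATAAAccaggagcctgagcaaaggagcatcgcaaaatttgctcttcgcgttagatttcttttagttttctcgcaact
Hist1h2bm, chr13:21721794-21722093, + strand: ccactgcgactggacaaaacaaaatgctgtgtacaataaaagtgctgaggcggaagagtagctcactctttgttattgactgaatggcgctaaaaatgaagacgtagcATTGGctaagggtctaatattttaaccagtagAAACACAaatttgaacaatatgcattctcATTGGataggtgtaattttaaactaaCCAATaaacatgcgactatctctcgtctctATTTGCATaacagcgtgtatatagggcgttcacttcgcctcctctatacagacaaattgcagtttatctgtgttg
Hist2h2ac, chr3:96220831-96221130, - strand: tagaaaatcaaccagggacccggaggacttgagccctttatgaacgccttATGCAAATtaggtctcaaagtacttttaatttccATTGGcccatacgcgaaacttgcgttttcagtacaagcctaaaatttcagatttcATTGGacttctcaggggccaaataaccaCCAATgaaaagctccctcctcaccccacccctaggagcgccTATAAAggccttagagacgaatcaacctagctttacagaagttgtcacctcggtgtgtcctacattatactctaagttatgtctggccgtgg
Both H1 windows hold CCAAT followed closely by TATAAA, and the window of Hist1h2bm holds the octamer and no TATAAA. Such matches describe the letters of the sequence and were not tested as binding sites.

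Because members resemble each other, reads were compared with where they could be placed. HTSeq sets aside reads with more than 1 alignment. Each member was cut into all windows of 50 bases, and windows that occurred in transcripts of no gene elsewhere were counted as its own. In Hist1h1a, Hist1h1b, Hist1h1t, Hist2h2bb, Hist2h2be and Hist4h4 every window was its own, whereas Hist1h2ap, Hist2h2aa2 and Hist2h3c2 had none within the RefSeq gene. In all, 26 members had over 50% of their windows to themselves. Hist1h2ao, Hist1h2ap, Hist1h2bq, Hist1h2br and Hist2h2aa2 had 0 counts in all 4 libraries, and at most 11.3% of windows of their own (Hist1h2br), so a count of 0 does not measure their transcription. A count of 3, the smallest taken as detected, corresponds to 0.127 to 0.202 CPM (the count divided by all counts assigned to genes, scaled to 1000000) in these libraries. Exons of Hist1h1e and Hist1h2be overlap, and no strand setting is given in the sources used here, so their counts can be split or shared.

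The summed level of the clustered histone genes was nearly the same in both genotypes and differed widely between the experimental groups. In group 1 it was 4473 CPM (control) and 4796 CPM (mutant), and in group 2 it was 1590 CPM (control) and 1704 CPM (mutant). In CPM, mutants were therefore above their own control in both groups, with log2 ratios of 0.1006 and 0.1002 (mean 0.10, SD 0.000318, n = 2 groups). With the TMM scaling factors used in the tests the mean was 0.0425. These factors were 0.977 (control) and 1.05 (mutant) in group 1, and 0.983 and 0.996 in group 2. The near equality of the 2 ratios therefore holds for CPM only and does not measure precision. The parts of the sum moved in different directions, as given below for each family. With 2 mice per genotype an exact permutation test could not pass 0.05, and none was run. In sorted bulk cells, more cells of a type and more transcript per cell cannot be told apart.

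The families did not move alike. H1 transcripts summed to 1045 and 385 CPM in the controls and to 1270 and 509 CPM in the mutants, with log2 ratios of 0.28 and 0.40. H2a transcripts summed to 366 and 150 CPM in the controls and 465 and 190 CPM in the mutants, a log2 ratio of 0.34 in both groups. H3 transcripts, at 265 and 119 CPM in the controls and 348 and 138 CPM in the mutants, had ratios of 0.39 and 0.21. Each of these sums was higher in the mutant of either group. H4 transcripts summed to 1073 and 316 CPM in the controls and 1114 and 316 CPM in the mutants, with ratios of 0.05 and -0.0024. H2b transcripts, the largest family, went the other way, from 1723 and 620 CPM to 1599 and 552 CPM, with ratios of -0.11 and -0.17. Without Hist2h2be the H2b sum was 747 and 267 CPM in the controls and 906 and 362 CPM in the mutants, and its ratios became 0.28 and 0.44. The same omission raised the mean log2 ratio of the sum over all members from 0.10 to 0.26. This ratio also depended on the scaling and the members summed. It was 0.0425 with TMM library sizes, 0.03 over members with mostly unique windows and 0.31 over Hist1 members.

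**Figure D1:**
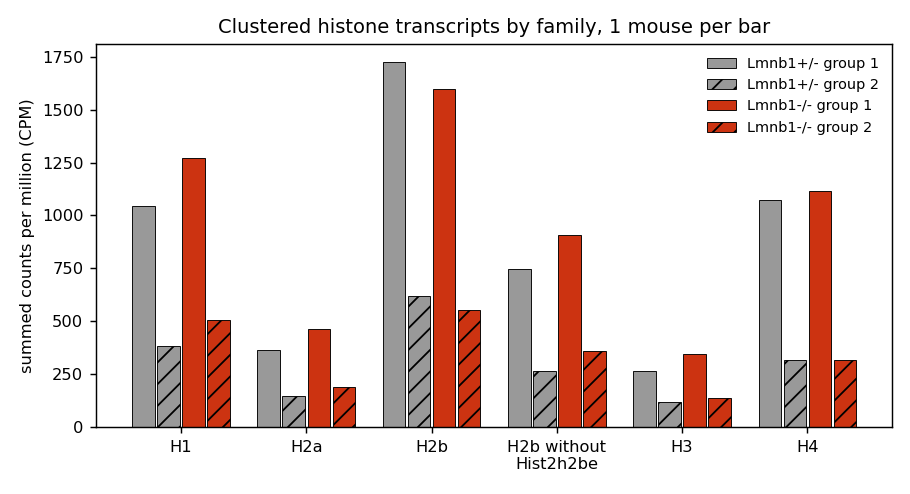
Summed CPM of clustered histone genes by family (x axis) in each of the 4 libraries, with controls (Lmnb1+/-) in grey, mutants (Lmnb1-/-) in red and experimental group 2 hatched; every bar is 1 mouse and has no error. Both hatched bars are far below both plain bars in every family, and the H2b sum is lower in the mutants only where Hist2h2be is included.

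To ask which members differ between genotypes, the 58 members that passed the filter (above 1 CPM in at least 2 libraries) were tested with all other genes in 1 model of genotype and experimental group. Of them 4 passed the edgeR test (adjusted p under 0.05) with a higher level in the mutants, which is 6.90% of tested members, compared with 1.28% of all 15438 tested genes. None was lower, compared with 4.30% of all genes, although the quasi-likelihood test of edgeR and DESeq2 each called 1 lower, Hist2h2be. At an unadjusted p under 0.05, 18 of 58 members were higher and 3 lower, compared with 6.32% and 9.62% of all tested genes. The 4 that passed were the H1 genes Hist1h1a, Hist1h1b and Hist1h1d, and the H2b gene Hist1h2bm, all in the Hist1 locus. The median fitted log2 fold change between mutant and control, called log2 change here, was 0.35 over the tested members and -0.01 over all tested genes, and with offsets for gene length and GC content these became 0.19 and -0.09. Estimates were positive in 44 of 58 members, or 75.9%, compared with 48.9% of all tested genes, a share that also applies to the families and loci below. Members had positive ratios in both groups in 41 of 58 cases, or 70.7%, compared with 35.5% of all tested genes, and negative ratios in both in 7, compared with 27.8% of all. Among the 23 tested members with most of their windows to themselves, the median log2 change was 0.13 and 13 estimates were positive. Among the other 35 it was 0.55 and 31 were positive. Ratios were positive in both groups in 13 of the 23 and in 28 of the 35. The 4 that passed were all among the 23. The cause of this difference was not tested. Members share reads, loci and cells, so these shares are descriptions and no test was made over them.

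Hist1h1a, at chr13:23763668-23764412, encodes a replication-dependent linker histone. Its level was 86.1 (control) and 144 CPM (mutant) in group 1, and 28.1 (control) and 58.3 CPM (mutant) in group 2. It was higher in the mutant of both groups, by log2 ratios of 0.74 and 1.05, and the fitted log2 fold change was 0.84 (SE 0.17, edgeR adjusted p = 0.000136). Hist1h1b, at chr13:21779832-21780625, encodes another replication-dependent linker histone. It rose from 99.6 to 153 CPM in group 1 and from 23.3 to 55.0 CPM in group 2, a fitted log2 change of 0.86 (SE 0.19, edgeR adjusted p = 0.000695). Every window of both genes is their own, so reads of other members do not enter their counts by exact match.

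Hist1h1d, at chr13:23555032-23555807, has 77.6% of its windows to itself. Its level was 119 and 41.6 CPM in the controls and 165 and 72.1 CPM in the mutants, a log2 change of 0.57 (SE 0.19, edgeR adjusted p = 0.0424). This call was close to the threshold and did not hold under the quasi-likelihood test of edgeR (adjusted p = 0.0676), with counts thinned to the smallest library (adjusted p = 0.06) or with offsets for length and GC content (adjusted p = 0.143), though it did with DESeq2. Hist1h2bm, at chr13:21722044-21722526, encodes a replication-dependent H2b and has 52.1% of its windows to itself. It had 32.4 and 7.72 CPM in the controls and 49.7 and 17.7 CPM in the mutants, a log2 change of 0.83 (SE 0.26, edgeR adjusted p = 0.0282). Its call was lost with the quasi-likelihood test (adjusted p = 0.0761), with DESeq2 (adjusted p = 0.106) and with the same offsets (adjusted p = 0.148). For each of these genes the mutant of group 1 was the highest library and the control of group 2 the lowest.

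The other somatic H1 genes, which are more abundant per kilobase, did not pass the test. Hist1h1c had 357 and 140 CPM in the controls and 385 and 179 CPM in the mutants, with a log2 change of 0.18 (SE 0.23, edgeR adjusted p = 0.814). Hist1h1e had 383 and 152 CPM in the controls and 422 and 144 CPM in the mutants, a log2 change of -0.02 (SE 0.22, edgeR adjusted p = 0.987), and its ratios in the groups had opposite signs. Whether these genes differ from Hist1h1a and Hist1h1b in their response was not tested. By mean CPM per kilobase over the 4 libraries the order was Hist1h1c (366), Hist1h1e (352), Hist1h1d (128), Hist1h1a (106) and Hist1h1b (104). Hist1h1t, the testis H1 gene, had 0 and 3 counts in the controls and 17 and 1 in the mutants and was not tested. Such low counts in mutant 1, the library with the fewest genes at 0, are not evidence of a change with genotype.

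**Figure D2:**
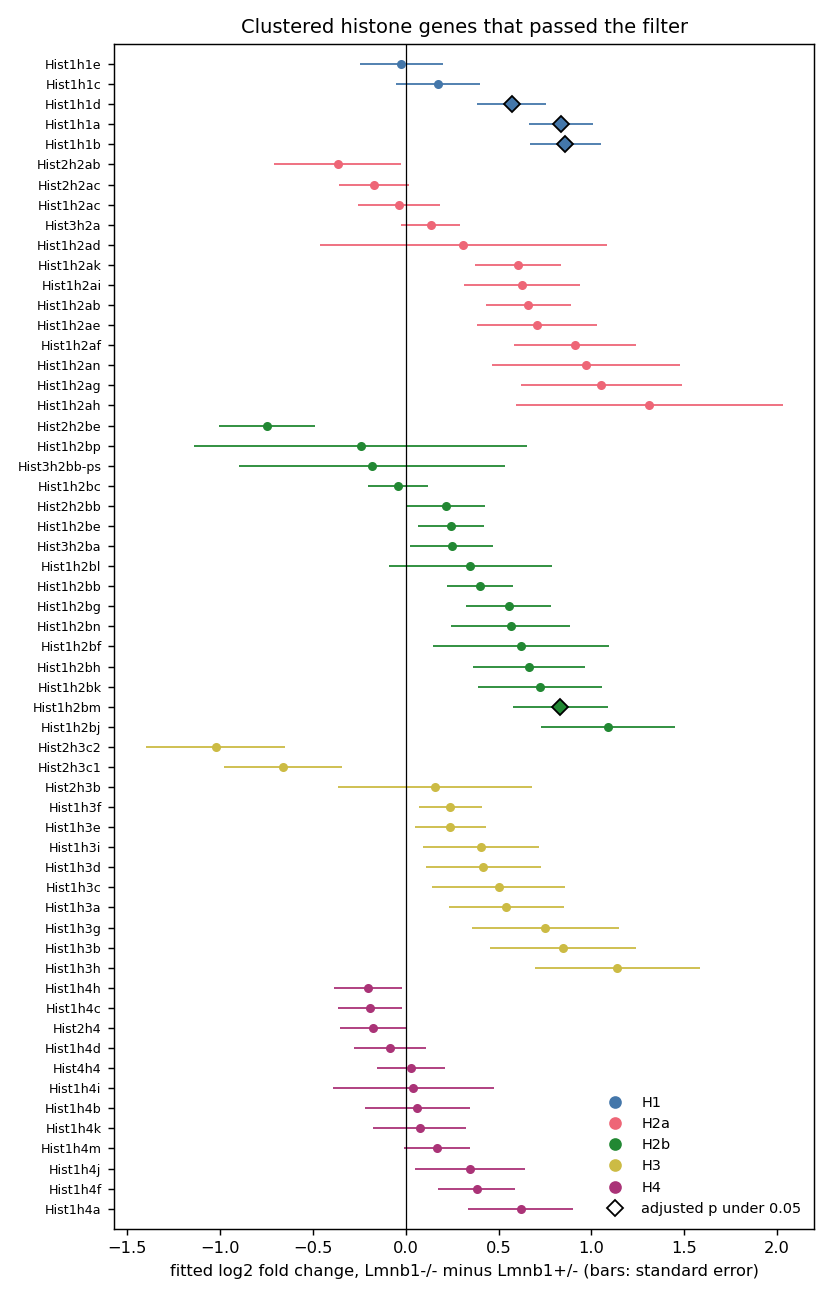
Fitted log2 fold change between mutant and control (x axis) for each of the 58 tested members (y axis), with bars for the standard error, colour for the family and black-edged diamonds for an adjusted p under 0.05. The 4 diamonds lie between 0.57 and 0.86, and the lowest points are Hist2h3c2, Hist2h2be and Hist2h3c1.

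Among H2a genes 10 of 13 tested members had a positive log2 fold change and none passed the test. The family median was 0.63, and 6 of the 13 had an unadjusted p under 0.05, all of them higher, compared with 6.32% of all tested genes. Hist1h2ah had the largest estimate of any member, 1.31 (SE 0.72, edgeR adjusted p = 0.381), on 18 to 125 counts per library. It has only 9.3% of its windows to itself, so how its reads were split is uncertain. It was also the only tested member with both mutants above both controls (compared with 15.2% of all tested genes), at 2.57 and 0.842 CPM against 5.64 and 2.63 CPM. The most abundant H2a genes per kilobase had estimates near 0. Hist3h2a had 96.7 and 55.8 CPM in the controls and 114 and 61.6 CPM in the mutants, a log2 change of 0.13 (SE 0.16, edgeR adjusted p = 0.787). Hist2h2ac and Hist1h2ac had log2 fold changes of -0.17 and -0.04. Only Hist3h2a, Hist2h2ac and Hist2h2ab (log2 change -0.37) among the tested H2a genes have most of their windows to themselves. The family median therefore rests mainly on genes that share most of their windows. Hist1h2aa, a testis gene, had no counts in the controls and 7 and 1 in the mutants. It was not tested, and the limit on low counts in mutant 1 applies here too.

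Of 16 tested H2b genes 12 had a positive estimate, and the family median was 0.37. Hist1h2bj had 14.8 and 2.99 CPM in the controls and 26.6 and 8.43 CPM in the mutants, a log2 change of 1.09 (SE 0.36) that narrowly missed the threshold (edgeR adjusted p = 0.0506). It has 37.9% of its windows to itself. Hist2h2bb was the member with the highest level per kilobase, a mean of 448 CPM per kilobase, and its log2 fold change was 0.22 (SE 0.21, edgeR adjusted p = 0.722). Its exon is also covered by longer annotated transcripts, Gm20628 and Gm42743. Hist1h2bb and Hist3h2ba had estimates of 0.40 and 0.25. The testis gene Hist1h2ba had 2 counts in control 1 and 0 in the other libraries.

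Hist2h2be, at chr3:96221072-96223738, was the most abundant member by counts, and its estimate was the lowest of the H2b genes, of which 4 of 16 tested were negative. Its counts were 23127 in control 1 and 15342 in mutant 1, and 7537 in control 2 and 2822 in mutant 2. In CPM it had 976 and 352 in the controls and 693 and 190 in the mutants, and it was lower in the mutant of both groups, with log2 ratios of -0.49 and -0.89. The fitted log2 fold change was -0.75 (SE 0.26) and missed the threshold of the likelihood-ratio test (edgeR adjusted p = 0.0625). It passed under the quasi-likelihood test of edgeR (adjusted p = 0.0192), under DESeq2 (adjusted p = 2.19e-06) and in edgeR with offsets for length and GC content (adjusted p = 0.00937). In edgeR it did not pass with RLE factors (adjusted p = 0.0706), thinned counts (0.0716) or background subtracted from mutant 1 (0.106). Nor did it pass with the tally lines kept (0.0913), without a filter (0.42) or with a filter on all 4 libraries (0.0608). Its share of all H2b CPM was 56.6% and 56.9% in the controls, and 43.3% and 34.5% in the mutants. Mature neuron markers fell beside it. All 10 of 10 listed, such as the olfactory marker protein gene Omp and the channel gene Cnga2, passed the test with lower levels in the mutants and a median log2 change of -1.35, and their part in the level of Hist2h2be was not tested. Over all tested genes 4.30% passed as lower, and the markers were listed with earlier results of these data known. The summed level of the markers was 17137 and 7517 CPM in the controls and 10078 and 2208 CPM in the mutants.

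H3 genes had a median of 0.41, with 10 of 12 positive and none past the threshold. The largest estimate was that of Hist1h3h, with 8.77 and 2.76 CPM in the controls and 15.8 and 8.29 CPM in the mutants, a log2 change of 1.14 (SE 0.44, edgeR adjusted p = 0.131). Hist1h3h has only 6.1% of its windows to itself, so how its reads were split is uncertain. Hist1h3f, the H3 gene with the highest level per kilobase, gave 0.24 (SE 0.17), Hist1h3e 0.24 (SE 0.19) and Hist1h3i 0.41 (SE 0.31). Hist2h3c2 and Hist2h3c1 had the lowest estimates of the family. Hist2h3c2 had 19.9 and 9.96 CPM in the controls and 11.2 and 4.58 CPM in the mutants, a log2 change of -1.02 (SE 0.38, edgeR adjusted p = 0.0944), and Hist2h3c1 had -0.66 (SE 0.32, edgeR adjusted p = 0.275). These are near-identical copies with at most 2.4% of windows of their own in the RefSeq gene, so how their reads were split is uncertain.

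H4 genes had the smallest median, 0.05, and their estimates ran from -0.20 to 0.62. Hist1h4d, the most abundant, had 245 and 87.9 CPM in the controls and 255 and 81.2 CPM in the mutants, a log2 change of -0.08 (SE 0.20, edgeR adjusted p = 0.922). Hist1h4h gave -0.20 (SE 0.18, edgeR adjusted p = 0.687) and Hist4h4 0.03 (SE 0.18, edgeR adjusted p = 0.979). Of the 12 tested H4 genes 6 had ratios of opposite sign in the experimental groups, the most of any family.

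By locus, 39 of 46 tested Hist1 members had a positive log2 fold change, with a median of 0.52, compared with 2 of 8 tested Hist2 members, with a median of -0.27. Over all tested genes 48.9% were positive. The Hist1 sum was 2646 and 948 CPM in the controls and 3208 and 1200 CPM in the mutants, while the Hist2 sum was 1497 and 534 CPM in the controls and 1237 and 382 CPM in the mutants. The difference between the loci was not tested. Hist1 spans 2219 kb in which members sit in separate stretches, and each stretch had a positive median, of 0.57, 1.05 and 0.41 from the first member on. Of 14 pairs of members that start head to head within 1000 bases, 11 had both members tested, and 9 of these had estimates of the same sign. As 75.9% of tested members had a positive estimate, pairs picked at random would often share a sign. Whether head-to-head pairs do so more often was not tested. Hist1h2ag and Hist1h2bj, 249 bases apart, had 1.05 and 1.09. Hist2h2ac and Hist2h2be, 192 bases apart, had -0.17 and -0.75, at mean levels of 44.3 and 553 CPM.

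**Figure D3:**
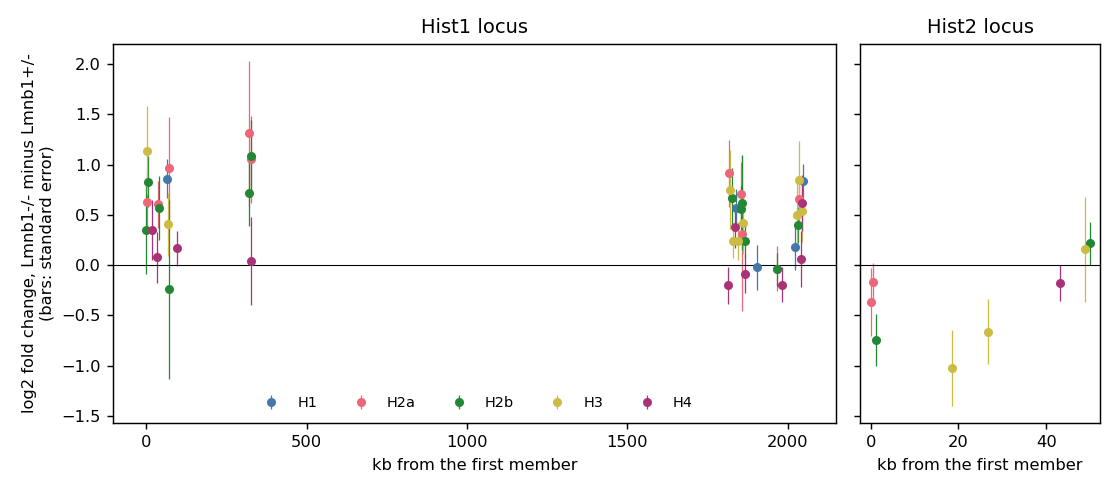
Fitted log2 fold change between mutant and control (y axis, bars for the standard error) by distance in kb from the first member of the Hist1 locus (left) and the Hist2 locus (right), coloured by family. Most Hist1 members lie above 0 in each stretch, and 6 of the 8 tested Hist2 members lie below it.

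The experimental group was the larger source of variation. Of the 58 tested members 53 were lower in group 2 at an edgeR adjusted p under 0.05 and 0 were higher, or 91.4% lower, compared with 14.0% of all tested genes lower and 17.7% higher. The 5 others also had negative estimates, from -1.65 for Hist1h2ad to -0.74 for Hist2h3c1. In 57 of 58 members both libraries of group 2 were below both of group 1, compared with 32.3% of all tested genes, Hist1h2ah being the exception. The median coefficient was -1.46 over the members and -0.03 over all tested genes. Summed over the members, group 1 was 2.81 times group 2 among controls and 2.82 times among mutants.

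The size of the group difference varied among members. Hist4h4 had the largest, from 190 and 186 CPM in the control and mutant of group 1 to 36.1 and 42.1 CPM in those of group 2, a log2 change of -2.24 (SE 0.18, edgeR adjusted p = 6.3e-29). Hist1h2bc, which has a spliced model, had the smallest, from 79.9 and 81.5 CPM to 57.0 and 57.0 CPM, a log2 change of -0.47 (SE 0.16, edgeR adjusted p = 0.0152). By family, the median coefficient was -1.41 for H1, -1.39 for H2a, -1.59 for H2b, -1.27 for H3 and -1.69 for H4. Members whose model holds a stem-loop had a median of -1.39, and the others -1.56. Of the 22 members without a match, 16 have only models that may end with the coding sequence. The 2 medians therefore do not compare mRNAs with and without a stem-loop.

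**Figure D4:**
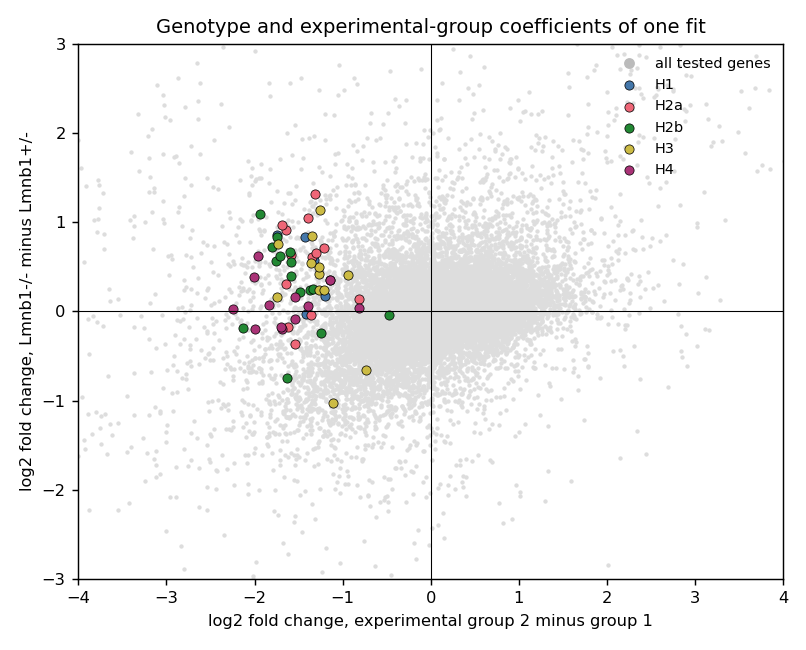
Log2 fold change between experimental group 2 and group 1 (x axis) and between mutant and control (y axis) for all 15438 tested genes (grey) and the 58 tested members (coloured by family); genes beyond the axis limits are not drawn. Every member lies to the left of 0, from -2.24 to -0.47, and members spread from -1.02 to 1.31 in the vertical direction.

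Other measures moved with the experimental group. Alignments set aside as not unique numbered 2.86 and 2.81 per assigned read in the control and mutant of group 1, and 0.482 and 0.456 in those of group 2. Of 38 tested small non-coding RNAs 19 passed as lower in group 2 and 0 as higher, with a median of -1.66. This list was drawn up after the values had been seen. The RNA components of RNase MRP and RNase P, Rmrp and Rpph1, made up 5.79% and 4.51% of assigned reads in group 1 and 0.611% and 0.486% in group 2. Leaving both out of the table kept the count of members lower in group 2 at 53. That outcome was nearly fixed beforehand, since both made up at most 5.79% of reads while the median coefficient of members was -1.46. Histone genes outside the clusters, most of which have polyadenylated mRNA, had a median of -0.48, with 5 of 11 tested lower and 0 higher in group 2. Among them the replacement histone genes H3f3a and H3f3b had coefficients of -0.01 and -0.07. Genes of DNA replication and S phase had a median of -0.15, with 3 of 32 lower and 3 higher. Of cell type markers, 9 of 10 mature neuron genes were lower in group 2, all 6 of 6 sustentacular genes were higher (median 1.36), and 4 of 6 horizontal basal cell genes were lower and 2 higher. The part of these in the group difference was not tested, and treatment, parents, age, sex and any difference in handling of the groups cannot be told apart.

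Genes related to the members by function were compared between genotypes in the same fit. Over all tested genes 1.28% passed as higher in the mutants and 4.30% as lower, shares that apply to each list below. Of 32 genes of DNA replication and S phase 9 passed as higher in the mutants and 0 as lower. Their median log2 change was 0.68, and 30 were positive. The genes that passed included the helicase subunit genes Mcm2, Mcm3, Mcm5 and Mcm6, the topoisomerase gene Top2a and the cyclin genes Ccna2 and Ccnb1. The list is broader than its name, since it also holds genes of later stages of division, such as the mitotic cyclin gene Ccnb1. Top2a rose from 41.7 to 84.4 CPM in group 1 and from 67.9 to 142 CPM in group 2, a log2 change of 0.98 (SE 0.16, edgeR adjusted p = 5.93e-07). Unlike the histone members, Top2a was higher in group 2 than in group 1. Of markers of globose basal and progenitor cells, the dividing cells of the epithelium, 2 of 8 were higher, Kit and Hes6, and all 8 had positive estimates. Of 6 horizontal basal cell markers Krt15 and Egfr were higher. Their part in the levels of the members was not tested.

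Factors that make and place histones did not pass the test. None of 25 genes of histone mRNA processing and transcription was called in either direction by edgeR, 0 had an unadjusted p under 0.05, and their median was 0.05. Slbp had 34.3 and 52.3 CPM in the controls and 40.4 and 54.5 CPM in the mutants, a log2 change of 0.09 (SE 0.18, edgeR adjusted p = 0.899), and Npat, which activates transcription of the clusters, had 0.19 (SE 0.23, edgeR adjusted p = 0.789). None of 24 histone chaperone genes was called by edgeR, 3 had an unadjusted p under 0.05, all higher, and the median was 0.07. Over all tested genes, 6.32% were higher and 9.62% lower at an unadjusted p under 0.05 in the same test. Of 11 tested histone genes outside the clusters H2afx was higher, from 42.9 to 69.7 CPM in group 1 and from 22.4 to 35.3 CPM in group 2, a log2 change of 0.62 (SE 0.18, edgeR adjusted p = 0.0181). Its mRNA is known to exist in both a stem-loop and a polyadenylated form. Of the other cell types, 2 of 7 immature neuron markers were lower (Stmn4 and Dcx), 1 of 6 glial markers was lower (Fabp7), and 0 of 6 sustentacular and 0 of 12 tested leukocyte markers were called. Over all tested genes 4.30% were called lower and 1.28% higher. The median ratio of the leukocyte markers was -1.55 in group 1 and 0.93 in group 2.

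**Figure D5:**
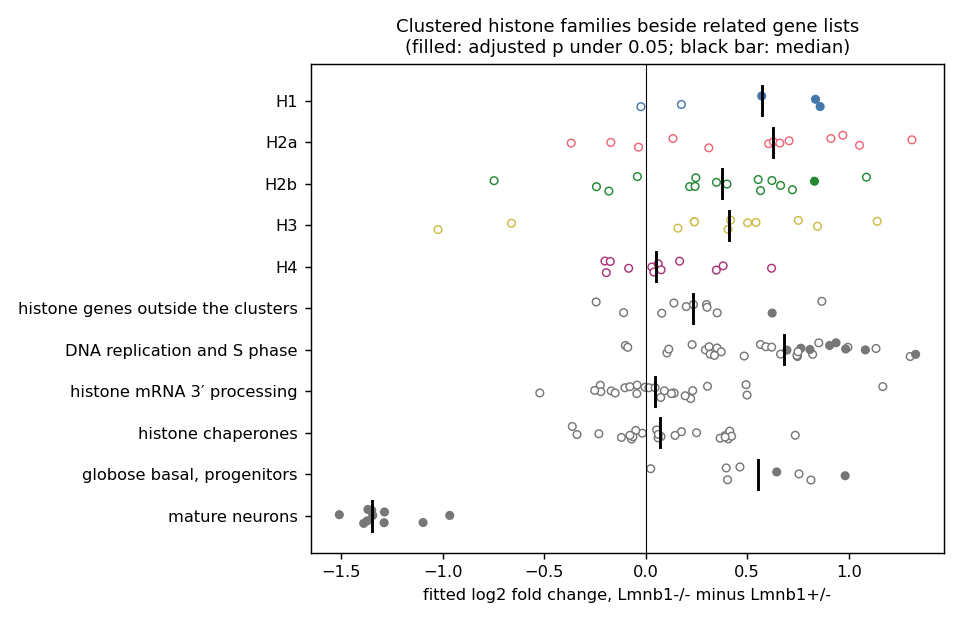
Fitted log2 fold change between mutant and control (x axis) of the tested members of each histone family and of 6 lists of related genes (rows), 1 point per gene, filled where the adjusted p was under 0.05, with a black bar at the median. H1, H2a and H3 lie mostly to the right of 0, with medians of 0.57, 0.63 and 0.41, beside 0.68 for the list of DNA replication and S phase, while all 10 mature neuron markers are filled and lie to the left.

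The calls between genotypes rest on the model with experimental group. Without that term none of the 58 members passed in edgeR, compared with 6 higher and 0 lower among all 15438 tested genes. When any 1 library was left out and genotype alone was fitted, the median log2 change ran from -0.483 (without mutant 1) to 1.24 (without control 1). In these fits the difference between experimental groups enters the spread within a genotype. Removing an estimated background of 3.54 counts per kb from mutant 1 gave 6 members higher and 0 lower, and offsets for gene length and GC content gave 2 higher and 2 lower.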

How the data were processed

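RNA-seq counts were available for 4 libraries, each from 1 mouse. The files hold unnormalized read counts for each gene, which the authors made with HTSeq in intersection-nonempty mode after removing ribosomal reads with Bowtie2 (2.0.6), filtering on base quality and aligning to mm10 with TopHat (2.0.7, listed as TopHat2 in the submitters' processing notes). The annotation release and strand setting are not given in the sources used here. The 5 tally lines of HTSeq entered neither library sizes nor tests. This departs from the study's code, in which they counted as genes, so that its library sizes and its 1 CPM cut differ from those used here.

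Genes above 1 CPM in at least 2 libraries entered a fit in edgeR 4.0.16 (R 4.3.3) with the test and model terms of the study's methods, a likelihood-ratio test with TMM factors, common, trended and tagwise dispersions, and a model of genotype and experimental group. Benjamini-Hochberg adjustment ran over all tested genes with a threshold of 0.05, and standard errors (SE) are Wald errors. The experimental group is the replicate number of the labels. Deviations of same-numbered libraries from their genotype means correlated across genes (r = 0.52), which are not independent replicates. Ratios within a group use log2 CPM with a prior count of 2 and have no test. With 2 libraries per genotype and a term for experimental group, p-values rest on how far the 2 within-group ratios differ and on dispersions shared across genes. They do not measure the spread between mice of a genotype. Floors of 3 counts cover counting error only, since reads carry no molecular identifiers.

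Gene models came from RefSeq (GRCm38.p6) and GENCODE, the same build as mm10, in which all 68 members were found. Lengths, windows and stem-loops were taken from them, and promoter sequences from RefSeq. The members and lists were chosen with earlier results of these data known. Named members were those past the threshold, the 3 most abundant per kb in each family, the 3 largest changes in each direction, and a fixed set of H1 and variant genes. The fit was run on simulated data with 200 changed genes, drawn with its own dispersions and experimental-group coefficients. Such data follow the model of the fit, so this run checks the code and not the spread between mice. Alternatives were DESeq2 1.42.0, the quasi-likelihood test of edgeR, no replicate block, RLE factors, other filters, thinning, offsets on length and GC content (splines with 4 degrees of freedom), background subtraction and leaving out each library. The sums over Hist1 members and over members with mostly unique windows, and the alternatives without Rmrp and Rpph1 and without the genotype term, and a fit that keeps the tally lines, were chosen after seeing the data.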

Additional observations from a re-analysis of the deposited data

Results flagged for a closer look

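In 6 of the named members the mutant-to-control log2 ratio had opposite signs in the experimental groups, and the difference between groups was not tested. Hist1h1e had 0.14 in group 1 and -0.077 in group 2. Hist1h2ac had 0.10 and -0.065. Hist1h4d had 0.056 and -0.11. Hist2h2ac had -0.22 and 0.011. Hist4h4 had -0.036 and 0.22. Hist1h1t, which was not tested, had 3.15 and -0.53 on at most 17 counts. Each ratio rests on 1 mutant and 1 control.

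Outside the gene counts, 39.4% of the uniquely aligned reads of mutant 1 lay outside gene models, above the 23.8% and 24.9% of the controls.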

How the results depend on the processing

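The count of members higher in mutant cells was 4 in the reported fit and stayed between 3 and 6 with DESeq2, RLE factors, either other filter, thinning, background subtraction or the tally lines kept. It was 2 with edgeR's quasi-likelihood test and 2 with length and GC offsets. The count of lower members, 0 as reported, was 1 with the quasi-likelihood test, 1 with DESeq2 and 2 with the offsets. Hist1h1a and Hist1h1b passed in every fit that kept the block.

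With no replicate block 0 members were higher. The labels pair the libraries, so this and the fits on 3 libraries, in which genotype and experimental group are unbalanced, are not signs of a weaker difference. In those fits 0 members were higher, with a range of 0 to 0. The median log2 fold change ran from -0.483 (without mutant 1) to 1.24 (without control 1), Hist1h1a from -0.0049 to 1.80, Hist1h1b from -0.197 to 2.10, Hist1h1d from -0.193 to 1.46 and Hist1h2bm from -0.22 to 2.07.

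The median of 0.35 became 0.33 with no replicate block, 0.37 without a filter, 0.19 with the offsets 0.39 after background subtraction and 0.38 with the tally lines kept, and was 0.37 in group 2 and 0.35 in group 1. The mean log2 ratio of the summed level, 0.10, became 0.0425 with TMM library sizes, 0.26 without Hist2h2be, 0.11 after background subtraction, 0.03 over members with mostly unique windows and 0.31 over Hist1 members, and was 0.10 in either group alone. The median log2 fold change was 0.13 over the tested members with mostly unique windows and 0.55 over the others. The cause of these shifts was not tested. Members that differed between experimental groups numbered 46 to 54. A check of windows against a genome was not run. Depth limits members under about 100 counts, such as Hist1h2ad and Hist1h2bp, whose SE exceeded 0.7.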
